A study of Homo sapiens with 4 samples.

Results

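The WNT pathway genes described here are 45 genes taken from the 26364 gene symbols of the count table. They were chosen by their place in the pathway and by no threshold on measured levels, but with earlier results of these data known. They comprise 12 WNT ligands, 2 ligand secretion genes (PORCN and WLS), 10 frizzled receptors, 2 coreceptors (LRP5 and LRP6), 2 R-spondin receptors (LGR4 and LGR5), 2 receptor-removing ligases (RNF43 and ZNRF3), 5 secreted inhibitors, 2 intracellular inhibitors (NKD1 and NKD2), 4 genes of beta-catenin and its destruction complex, and 4 transcription factors. All 45 had a row in the table, and 41 passed the filter on low counts and were tested among 15599 genes. WNT4, WNT5A, FZD10 and SFRP4 had too few counts to be tested, with at most 10 counts in any library.

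WNT ligands are lipid-modified secreted proteins. They bind a frizzled receptor together with LRP5 or LRP6, which stops the destruction complex built on AXIN and APC from marking beta-catenin for degradation, and beta-catenin then acts in the nucleus with the TCF and LEF transcription factors. Several of the genes so switched on feed back on the pathway: AXIN2, NKD1, NOTUM and DKK1 dampen it, RNF43 and ZNRF3 remove frizzled receptors from the cell surface, and R-spondins bound to LGR4 or LGR5 hold those ligases in check. In the endometrium the pathway takes part in the estrogen-driven growth of the lining, and activating mutations of beta-catenin recur in endometrioid carcinoma.

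RNA was sequenced from Ishikawa cells, a human endometrial adenocarcinoma line, in which the estrogen receptor gene ESR1 carried the Y537S mutation of the ligand-binding domain. This mutation is known to leave the receptor active without hormone. The series holds 2 mutant clones, each grown for at least 5 days without hormone and then treated for 8 h with 0.1% DMSO as the vehicle or with estradiol (E2) at 10 nM, so that each treatment group has 2 libraries and every library carries the mutation. The columns are marked A4 or B212 in place of a clone number. No label mentions these tags, so they stand here for the clones without being tied to clone 1 or 2, and a difference between the tags describes these 2 clones only. How each line was made and whether the mutation is on one or all copies of ESR1 is not given in the sources used here.

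Each library held between 71575816 and 85222856 counts over 18358 to 18861 genes with at least 1 count. The tag set the libraries apart more than the treatment did, and the first principal component, with 84.1% of the variance, placed both A4 libraries at one end and both B212 libraries at the other. All 7 epithelial markers were present in every library, with a summed level of 2312 to 2454 CPM (read counts scaled to a common depth by the effective library size) in A4 and 2878 to 3149 CPM in B212. Of 5 markers of stromal fibroblasts, COL1A1 made up nearly all of a summed level of 93.4 to 129 CPM in A4 and 34.8 to 42.6 CPM in B212, while DCN had at most 1 count and LUM at most 5. Endothelial markers summed to 2.11 to 4.50 CPM with PECAM1 at 0, and immune markers to 1.60 to 2.39 CPM with CD3E at 0. The part of these marker differences in the differences between the tags was not tested.

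Beta-catenin itself was the most abundant member. Compared per length of transcript, CTNNB1 had a mean level of 120 CPM per kb over the 4 libraries, with a range of 113 to 129, and no other member reached that range. FZD6, a frizzled receptor, came second with 80.8 CPM per kb and a range of 63.1 to 93.3. The next 4 in order were LRP6, WLS, LGR4 and FZD5, with 21.3, 19.4, 18.9 and 17.3 CPM per kb. LRP6 and FZD5 did not overlap each other, while WLS, the carrier that brings ligands to the surface, and LGR4 overlapped both.

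Among the ligands WNT7A, which is known for its role in shaping the female reproductive tract, had the highest level at 8.95 CPM per kb, ahead of WNT3 at 3.60, and their ranges of 8.00 to 10.3 and 3.20 to 3.88 did not overlap. Of the member ligands, WNT7B and WNT10A followed with 1.27 and 1.25 CPM per kb and ranges that overlapped almost wholly. The other 8 member ligands had means of at most 0.668 CPM per kb. WNT10B, a ligand outside the members, had a higher mean than WNT7B and WNT10A, at 2.17 CPM per kb. Its level was 3.12 (DMSO) and 3.18 (E2) CPM per kb in A4 but 1.19 and 1.18 in B212. WNT4 had 4 to 10 counts in each library, and WNT5A had 0, 1, 1 and 4, so neither could be compared.

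The receptors spanned a wide range of levels. FZD10 had 0 counts in every library, which allows a level of up to 0.0351 to 0.0410 CPM in the single libraries, taking 3 counts as the limit that a count of 0 allows and covering counting error only. FZD8 and FZD9 lay at 0.301 and 0.650 CPM per kb, and the other 7 receptors between 2.20 and 80.8. Of the R-spondin receptors LGR4 was far above LGR5, a stem cell marker, at 18.9 against 0.0352 CPM per kb. The ligase ZNRF3 had 5.28 CPM per kb and its relative RNF43 had 0.662. Of the secreted inhibitors among the 45 members only DKK3 exceeded 1 CPM in every library. DKK1, NOTUM, SFRP1 and SFRP4 stayed below it in all of them. At that limit 29 of the 45 members were detected in all 4 libraries.

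**Figure D1:**
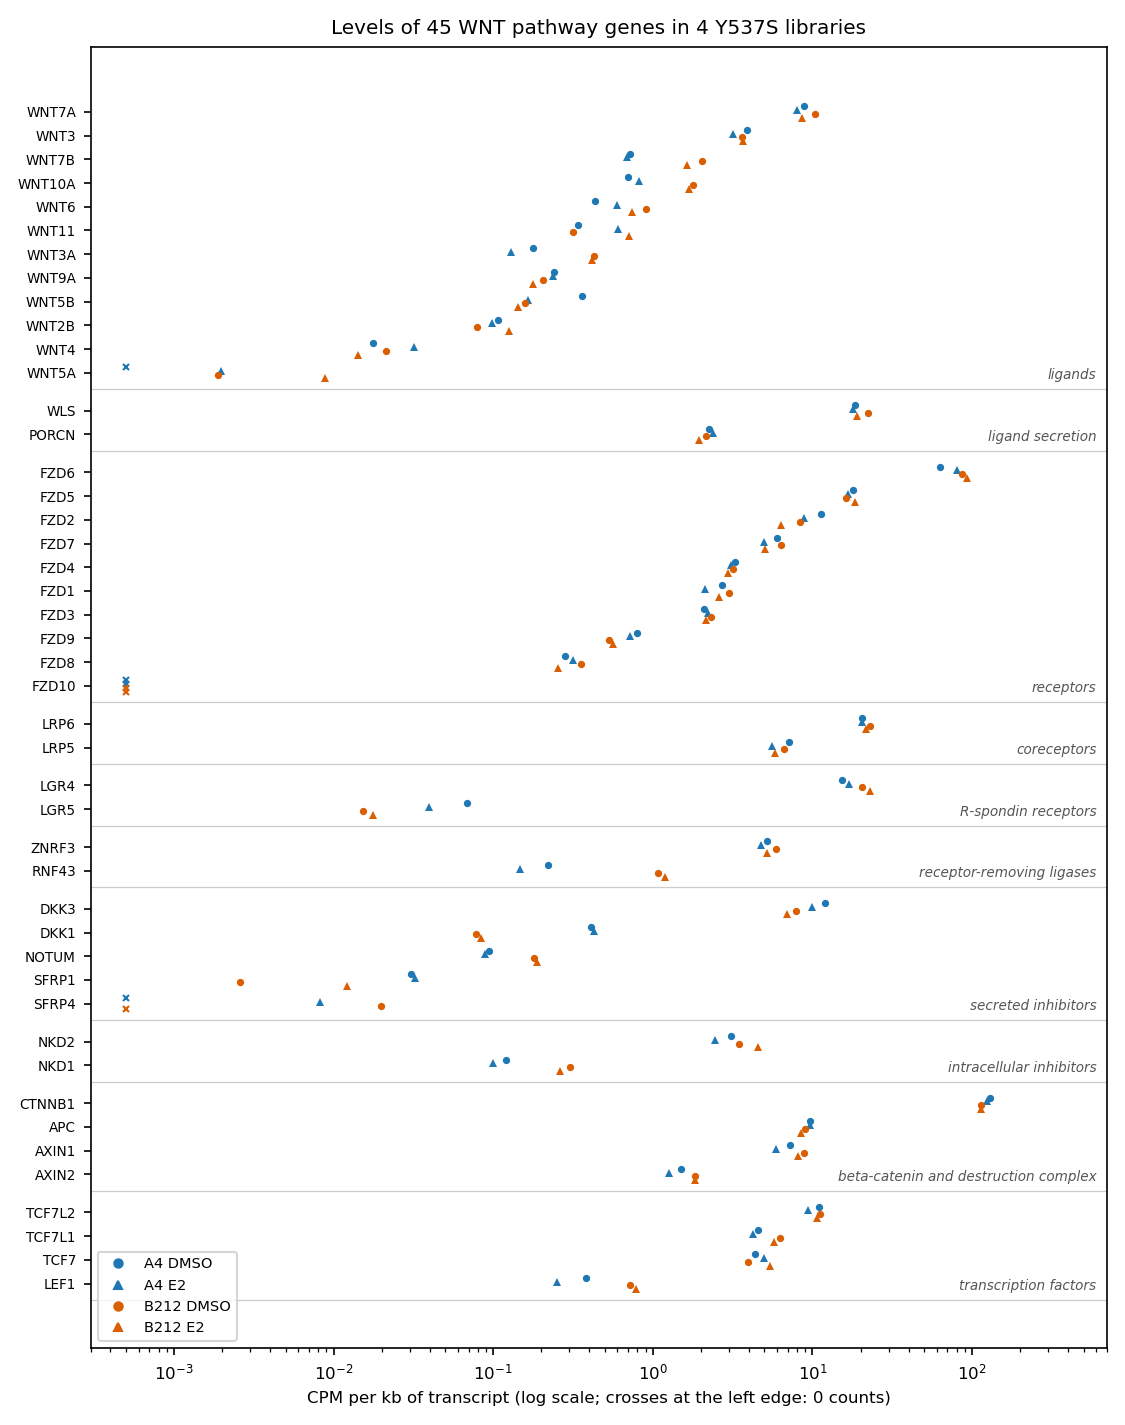
Level of each of the 45 genes in CPM per kb of transcript (log scale), grouped by role, with one point per library (circles DMSO, triangles E2, blue A4, orange B212) and crosses at the left edge for 0 counts. CTNNB1 and FZD6 lie at the right, and RNF43, DKK1, LEF1, NKD1 and WNT3A show blue and orange points that stand apart.

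The comparison of the B212 with the A4 libraries asked which members set these 2 mutant clones apart. Of the 41 tested members 20 passed edgeR's quasi-likelihood test with treatment as a covariate (threshold 0.05 on the Benjamini-Hochberg adjusted p), beside 51.0% of all genes tested, so the share of members (48.8%) was near the background. By direction, 15 were higher in B212 (36.6% of the tested members, beside 25.2% of all genes) and 5 were lower (12.2%, beside 25.8%). Of the 20, 10 differed by at least 1 on the log2 scale (24.4%, beside 11.0% of all genes), 7 higher (beside 7.09%) and 3 lower (beside 3.96%). Both B212 libraries lay above both A4 libraries for 17 tested members and below them for 11, beside 34.7% and 32.8% of all genes. The median log2 difference of the members was 0.09, beside 0.0042 over all genes. In bulk RNA, fewer cells that express a gene and less of its RNA in each cell cannot be told apart. Each tag had 1 DMSO and 1 E2 library and no replicates. The p-values therefore rest on how far the tag difference varied between the 2 treatments, with information shared across genes. They hold no variation between further clones.

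RNF43 differed most. The ligase had 1.23 CPM in A4 with DMSO and 0.817 with E2, against 6.05 and 6.67 CPM in the B212 libraries. Both B212 values lay far above both A4 values, from 90 and 67 counts in A4 and 516 and 489 in B212. The log2 fold change was 2.65 ± 0.17 (SE), a 6.26-fold higher level in B212, with an adjusted p of 1.23e-10 by edgeR. In the GENCODE 29 annotation, however, 58.5% of the exonic bases of RNF43 are shared with a same-strand gene model and 16.6% face an antisense gene, neither of which has a row in the count table, so how the counting treated those reads is uncertain.

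The intracellular inhibitor NKD1, a Dishevelled-binding feedback gene, had 2.06 and 1.71 CPM in the A4 libraries (DMSO, then E2, as in what follows) and 5.14 and 4.49 CPM in B212. Both B212 libraries were higher than both A4 libraries, by 1.36 ± 0.15 on the log2 scale (adjusted p 2.18e-07, edgeR). LEF1, which binds DNA and carries beta-catenin to its targets, had 1.32 and 0.878 CPM in A4 and 2.48 and 2.73 CPM in B212. The groups did not overlap, and the log2 fold change was 1.26 ± 0.20 (adjusted p 2.91e-05, edgeR). AXIN2, the usual readout of pathway activity, had 6.40 and 5.41 CPM in A4 and 7.79 and 7.86 CPM in B212. It was thus higher in B212 by a smaller margin, with a log2 fold change of 0.41 ± 0.12 and an adjusted p of 0.00644 by edgeR. That call was lost with DESeq2 and with no treatment term. In addition, 28.4% of the exonic bases of AXIN2 are shared with another gene model on the same strand. NOTUM, which strips the lipid from WNT ligands, had 16 and 17 counts in A4 and 36 and 32 in B212, a log2 fold change of 1.01 ± 0.37 (adjusted p 0.0305, edgeR).

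Other secreted and surface regulators ran the other way. DKK1, which blocks LRP5 and LRP6, had 54 and 63 counts (0.737 and 0.768 CPM) in A4 but 12 and 11 (0.141 and 0.150 CPM) in B212. The groups were clearly separate at this low level, with a log2 fold change of -2.36 ± 0.36 and an adjusted p of 1.74e-05 by edgeR. The ratio of A4 to B212, over the summed counts of 117 and 23, was 5.20 with a 95% counting interval of 3.30 to 8.52, and 11.8% of the exonic bases of DKK1 face an antisense gene. LGR5 had 23 and 15 counts in A4 and 6 in each B212 library, a ratio of 3.24 (1.66 to 6.80). SFRP1, a secreted frizzled-like protein that binds WNT ligands, had 10 and 12 counts against 1 and 4, a ratio of 4.50 (1.66 to 15.2). The adjusted p-values by edgeR were 0.0122 for LGR5 and 0.0239 for SFRP1. DKK3, a relative of DKK1 that is abundant here, was also lower in B212, at 20.9 and 18.3 CPM against 31.9 and 26.2 CPM (log2 fold change -0.56 ± 0.084).

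The genes known as feedback targets of the pathway are 9 of the members, namely AXIN2, NKD1, RNF43, ZNRF3, LGR5, NOTUM, DKK1, TCF7 and LEF1. Of these, 7 passed the test between the tags, 5 higher in B212 (RNF43, NKD1, LEF1, NOTUM and AXIN2) and 2 lower (DKK1 and LGR5), where 25.2% of all genes were higher and 25.8% lower. ZNRF3, with a log2 fold change of 0.16 ± 0.078, and TCF7, with -0.01 ± 0.096, did not pass. The median over the 9 was 0.41. Those that passed lay in both directions.

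**Figure D2:**
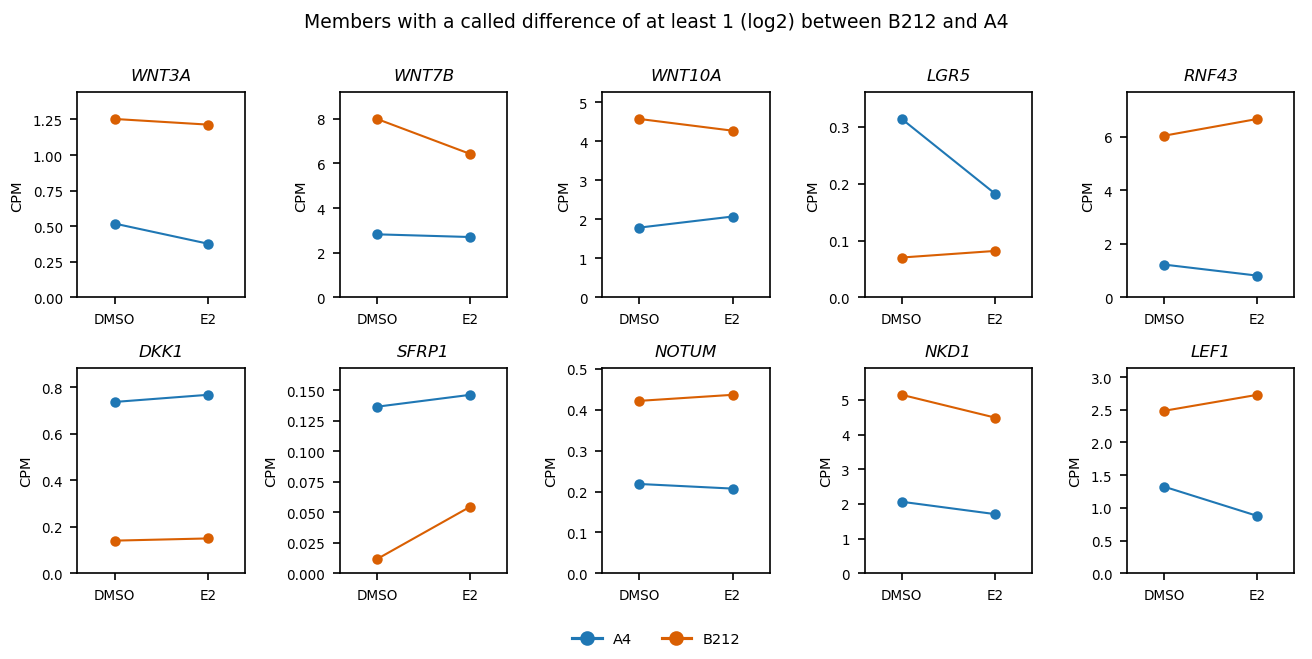
Depth-scaled counts (CPM) of the 10 members that differed by at least 1 (log2) between the tags, one panel per gene with its own vertical axis from 0, DMSO at the left and E2 at the right, one point per library. The B212 points (orange) lie above the A4 points (blue) for WNT3A, WNT7B, WNT10A, RNF43, NOTUM, NKD1 and LEF1 and below them for LGR5, DKK1 and SFRP1.

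The promoters of DKK1, RNF43 and LEF1 are shown as those of the feedback targets with an entry that passed between the tags with a log2 difference of at least 1, in opposite directions. The sequences are from RefSeq (GRCh38.p14) and run from 250 bases before to 50 after a transcript start, 5′ to 3′ on the gene's strand. Of the 45 members 30 had an entry, with 40 promoters in all. Capitals mark matches, on either strand, to the TCF/LEF core motif, written as AACAAAG, as ATCAAAG, as TACAAAG or as TTCAAAG, or to AGGTCA, the hexamer that pairs up in an estrogen response element. The DKK1 promoter, chr10:52314031-52314330 on the + strand, has 2 TCF/LEF matches, both on the opposite strand, which begin 95 and 76 bases before the start. The RNF43 promoter at chr17:58417485-58417784 and the LEF1 promoter at chr4:108166252-108166551, both on the - strand, have none of either motif, nor does a further RNF43 start at chr17:58402672-58402971.
DKK1: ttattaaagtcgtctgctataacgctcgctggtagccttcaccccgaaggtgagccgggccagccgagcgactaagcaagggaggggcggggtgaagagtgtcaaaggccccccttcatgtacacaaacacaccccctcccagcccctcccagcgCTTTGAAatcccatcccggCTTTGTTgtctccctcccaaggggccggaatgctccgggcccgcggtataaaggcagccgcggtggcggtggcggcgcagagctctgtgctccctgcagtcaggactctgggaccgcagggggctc
RNF43: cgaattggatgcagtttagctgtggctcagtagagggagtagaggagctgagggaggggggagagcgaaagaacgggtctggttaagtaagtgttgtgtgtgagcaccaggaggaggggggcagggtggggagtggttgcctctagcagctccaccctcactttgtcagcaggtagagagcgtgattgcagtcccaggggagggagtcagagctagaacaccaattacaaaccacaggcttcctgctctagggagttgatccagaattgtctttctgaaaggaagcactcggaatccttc
LEF1: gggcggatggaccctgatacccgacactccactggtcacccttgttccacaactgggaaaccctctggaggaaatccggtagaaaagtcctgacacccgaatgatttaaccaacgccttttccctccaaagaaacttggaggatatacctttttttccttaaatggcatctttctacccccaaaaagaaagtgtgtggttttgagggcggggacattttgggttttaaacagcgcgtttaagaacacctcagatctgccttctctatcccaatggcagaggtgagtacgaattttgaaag
A TCF/LEF match was present in 4 of the 40 member promoters and in 13.8% of all 35114 promoters of the same length. The matches describe letters in these windows and say nothing of binding.

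Of the member ligands, 4 of the 10 tested were higher in B212 and none was lower. Over all genes 25.2% were higher and 25.8% lower. Outside the members, the ligand WNT10B was lower in B212, with 519 and 594 counts in A4 and 231 and 197 in B212. The log2 fold change of WNT10B was -1.41 ± 0.13 (adjusted p 2.05e-08, edgeR), while WNT8B, also outside the members, did not pass. WNT3A, a classical activator of the beta-catenin branch, had 38 and 31 counts in A4 and 107 and 89 in B212 (0.519 and 0.378 CPM against 1.25 and 1.21 CPM). The B212 level was 2.76-fold that of A4, with a log2 fold change of 1.47 ± 0.26 and an adjusted p of 0.000103 by edgeR. WNT7B had 2.83 and 2.71 CPM in A4 and 7.99 and 6.43 CPM in B212, and WNT10A had 1.79 and 2.07 CPM against 4.57 and 4.27 CPM. Both ligands were separate between the tags, by 1.37 ± 0.13 for WNT7B (adjusted p 3.89e-08, edgeR) and 1.19 ± 0.15 for WNT10A (adjusted p 1.96e-06, edgeR). WNT6 was higher by 0.68 ± 0.23 (adjusted p 0.0196, edgeR). WNT7A, the most abundant ligand, had a log2 fold change of 0.16 ± 0.079 that did not pass (adjusted p 0.103, edgeR), and neither did WNT2B, WNT3, WNT5B, WNT9A or WNT11. The secretion genes also missed the threshold, with PORCN, the acyltransferase that all WNT ligands need, at 4.21 and 4.45 CPM in A4 and 4.05 and 3.63 CPM in B212.

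Among the receptors the abundant FZD6 was 1.26-fold higher in B212 (239 and 305 CPM in A4, 327 and 353 CPM in B212; log2 fold change 0.33 ± 0.075), while FZD2 was lower by 0.46 ± 0.088 on the log2 scale (23.9 and 18.8 CPM against 17.6 and 13.4 CPM). FZD1 was 1.16-fold higher with an adjusted p of 0.0475 (edgeR), and its call was lost in 7 of 9 other settings, where the highest adjusted p was 0.304. The other 6 receptors tested did not pass. For FZD2 both B212 libraries lay below both A4 libraries, by a narrow gap between the B212 DMSO and the A4 E2 library. LGR4, NKD2, AXIN1 and TCF7L1 were higher in B212 by 0.42, 0.52, 0.37 and 0.45 on the log2 scale. NKD2 had 6.65 and 5.31 CPM in A4 and 7.45 and 9.82 CPM in B212, so its gap was wider with E2. The calls of NKD2 and AXIN1 were lost with no treatment term. Neither coreceptor passed, and LRP6 had 204 and 205 CPM in A4 and 230 and 216 CPM in B212, a log2 fold change of 0.13 ± 0.070. CTNNB1, at 129 and 125 CPM per kb in A4 and 113 and 114 CPM per kb in B212, had a log2 fold change of -0.16 ± 0.072 (adjusted p 0.0754, edgeR), and APC one of -0.14 ± 0.069.

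**Figure D3:**
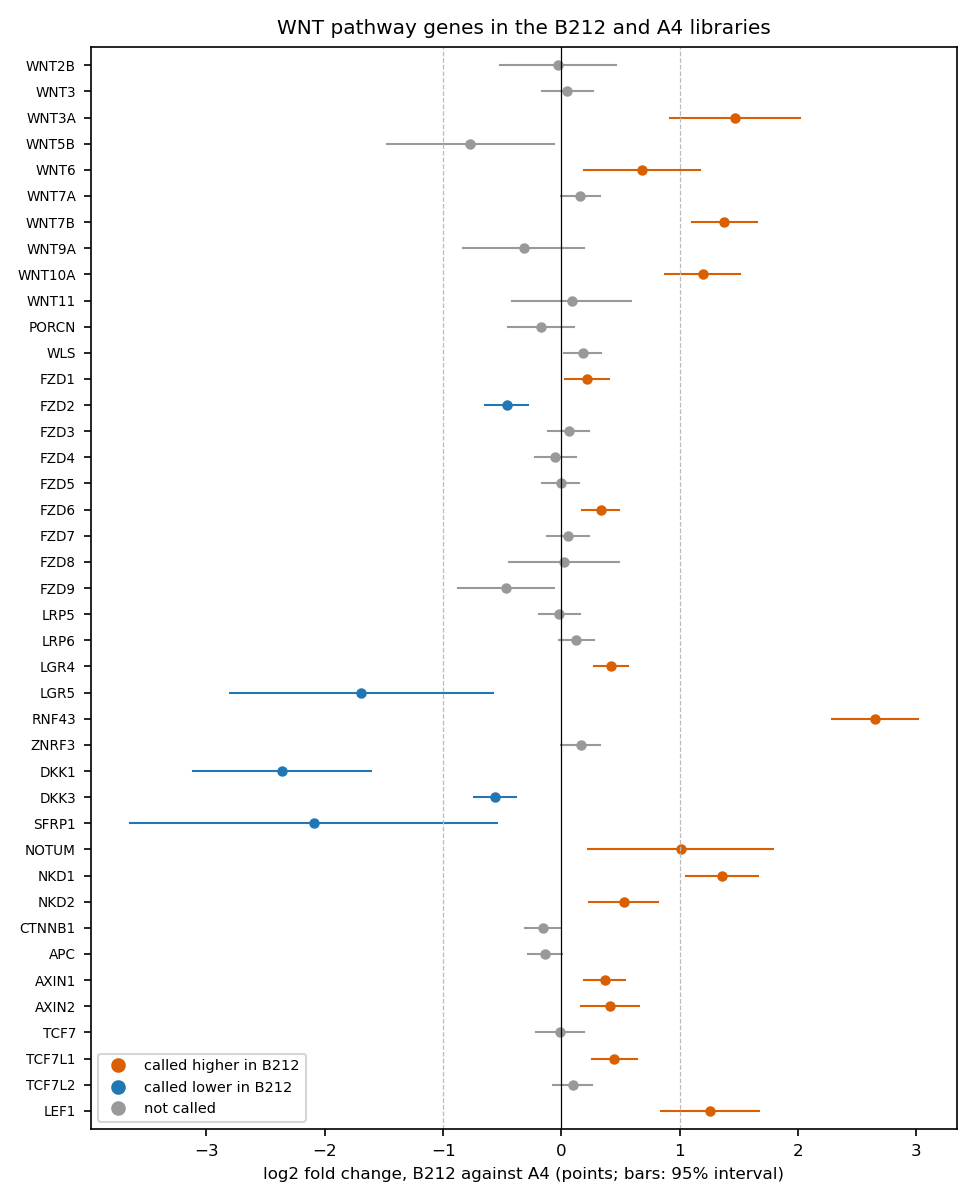
Log2 fold change of B212 against A4 for the 41 tested members with its 95% interval, in the order of the pathway from ligands at the top to transcription factors at the bottom, with dashed lines at 1 and -1. RNF43 stands farthest to the right at 2.65 and DKK1 farthest to the left at -2.36, and 21 members in grey did not pass the test.

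These calls depended on the treatment term, without which 11 members passed. The share of all genes that passed is not given for that fit or for those that follow, so these counts describe the members only. Fits that left out 1 library also had no treatment term, and they called 14 members without the A4 DMSO library, 15 without the A4 E2 library, 10 without the B212 DMSO library and 10 without the B212 E2 library. WNT3A, WNT7B, WNT10A, RNF43, DKK1, NKD1 and LEF1 passed in every alternative tried with all 4 libraries, and kept their sign when 1 was left out. The low-count genes LGR5, SFRP1 and NOTUM had adjusted p-values of 0.225, 0.229 and 0.311 by DESeq2. AXIN2 and WNT6 also lost their calls with DESeq2. With no treatment term the calls of AXIN2, WNT6, SFRP1, NOTUM, FZD1, FZD2, FZD6, NKD2 and AXIN1 were lost. SFRP1 and NOTUM lost theirs with no filter as well.

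The comparison of E2 with DMSO asked which members responded to hormone in cells whose receptor already carries an activating mutation. With no block for the clone, edgeR called none of the 41 members and 0% of all genes. At an unadjusted p under 0.05 there was 1 member, WNT11, and 0.962% of all genes, and DESeq2 without a block called 1 gene, which was no member. With the tag as a block, so that each E2 library is set against the DMSO library of its own tag, 5 of 41 members passed (12.2%) beside 9.56% of all genes, which is near the background. WNT11 and TCF7 rose (2 members, beside 6.13% of genes higher) and FZD2, FZD7 and LRP5 fell (3 members, beside 3.44% lower). Both E2 libraries exceeded both DMSO libraries in CPM for 2 tested members (beside 13.2% of all genes), and both were below for 6 (beside 11.8%). The values that follow come from the blocked fit. The median log2 fold change of the members was -0.10 (all genes: -0.0081).

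WNT11, a ligand mostly known for signalling without beta-catenin, rose the most. It had 48 counts with DMSO and 96 with E2 in A4, and 52 and 100 in B212, or 0.655, 1.17, 0.609 and 1.36 CPM. Both E2 libraries lay above both DMSO libraries, and the level was 2.00-fold higher with E2 (log2 fold change 1.00 ± 0.24, adjusted p 0.0141 by edgeR with the block). It was the only member that passed with a log2 change of 1 or more, beside 0.314% of all genes. An antisense gene model faces 10.6% of its exonic bases.

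TCF7, a transcription factor of the pathway and itself a feedback target, had 14.6 CPM with DMSO and 16.6 with E2 in A4, and 13.1 and 18.1 CPM in B212. The E2 libraries were both higher than the DMSO libraries, by 0.32 ± 0.096 on the log2 scale (adjusted p 0.0380, edgeR with the block). It was the only one of the 9 feedback targets that passed, a share near the 9.56% of all genes. Its RefSeq promoters are shown as those of the one member with an entry that rose with E2. They lie at chr5:134115363-134115662, where capitals mark an estrogen hexamer on the opposite strand that begins 37 bases before the start, and at chr5:134123368-134123667, where they mark a TCF/LEF match 50 bases before the start.
TCF7: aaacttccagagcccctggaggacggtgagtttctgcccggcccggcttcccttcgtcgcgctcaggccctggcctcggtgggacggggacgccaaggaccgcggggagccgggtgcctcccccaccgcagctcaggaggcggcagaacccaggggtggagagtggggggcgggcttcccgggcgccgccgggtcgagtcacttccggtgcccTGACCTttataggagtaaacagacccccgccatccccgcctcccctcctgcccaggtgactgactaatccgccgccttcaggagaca
TCF7, second start: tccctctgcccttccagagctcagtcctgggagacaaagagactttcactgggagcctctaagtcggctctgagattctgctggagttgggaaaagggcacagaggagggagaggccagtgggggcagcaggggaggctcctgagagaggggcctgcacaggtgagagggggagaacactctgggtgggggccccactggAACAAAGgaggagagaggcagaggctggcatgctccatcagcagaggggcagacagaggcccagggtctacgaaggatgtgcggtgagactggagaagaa
The hexamer was present in 3 of 40 member promoters and 13.8% of all promoters, and the full estrogen response element, which is GGTCA followed by any 3 bases and then TGACC, in 0 of 40 and 0.057%.

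The members that fell with E2 were surface receptors. FZD2 had 23.9 CPM with DMSO and 18.8 with E2 in A4, and 17.6 and 13.4 CPM in B212, so that the fall appeared in both tags although the treatment groups overlapped (log2 fold change -0.37 ± 0.088, adjusted p 0.0129, edgeR with the block). FZD7 went from 23.1 to 19.2 CPM in A4 and from 24.7 to 19.5 CPM in B212. LRP5, a coreceptor, went from 37.0 to 28.7 CPM and from 34.4 to 30.2 CPM. For both genes each E2 library lay below each DMSO library, with log2 fold changes of -0.30 ± 0.085 for FZD7 (adjusted p 0.0304) and -0.28 ± 0.081 for LRP5 (adjusted p 0.0365), by edgeR with the block. FZD1 just missed the threshold (-0.28 ± 0.089, adjusted p 0.0533), as did FZD6 in the other direction (0.23 ± 0.075, adjusted p 0.0576), both by edgeR with the block.

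**Figure D4:**
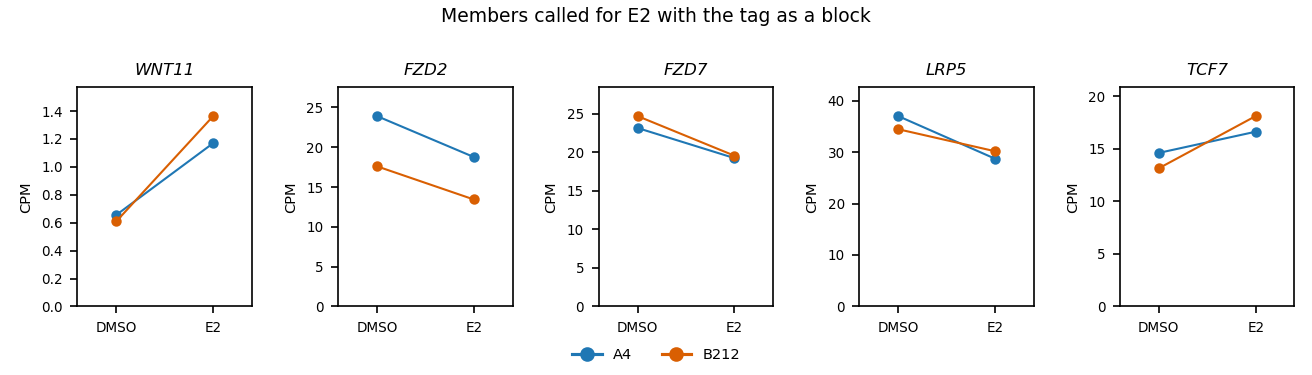
Depth-scaled counts (CPM) of the 5 members that passed the E2 test when the tag was a block, one panel per gene with its own vertical axis from 0, with a line from the DMSO to the E2 library of each tag. WNT11 and TCF7 go up and FZD2, FZD7 and LRP5 go down in both tags.

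When each library was first freed of a smooth dependence on transcript length and GC content, edgeR kept 3 of the 5 calls: WNT11 (adjusted p 0.0227), FZD2 (0.0204) and TCF7 (0.00780), each by edgeR with the block. LRP5 then had a log2 fold change of -0.10 (adjusted p 0.378) and FZD7 one of -0.22 (adjusted p 0.0894), by the same test. Under DESeq2's size factors only WNT11 and FZD2 remained, with adjusted p-values of 0.0400 and 0.0363 by edgeR with the block.

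The central genes of the pathway did not pass for E2 in either fit. With the block, the log2 fold change was -0.02 (95% interval -0.17 to 0.13) for CTNNB1, -0.11 (-0.35 to 0.13) for AXIN2, -0.04 (-0.19 to 0.11) for LRP6 and -0.04 (-0.32 to 0.25) for PORCN. Their E2 values lay between 0.926-fold (AXIN2) and 0.986-fold (CTNNB1) of DMSO, and the intervals leave room for small changes. The most abundant ligand, WNT7A, went from 35.9 to 32.3 CPM in A4 and from 41.7 to 34.7 CPM in B212, with an adjusted p of 0.100 by edgeR with the block.

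Within each tag there was 1 library per treatment, so the change can be given only with a counting interval, which covers counting error alone. WNT11 changed by 0.84 (0.34 to 1.34) on the log2 scale in A4 and by 1.16 (0.68 to 1.65) in B212, and TCF7 by 0.19 (0.07 to 0.30) and 0.46 (0.35 to 0.58). NKD2 had opposite signs, -0.32 (-0.51 to -0.14) in A4 and 0.40 (0.24 to 0.55) in B212, from 487 and 436 counts against 636 and 720. FZD5 also had opposite signs, from 121 to 112 CPM in A4 and from 108 to 123 CPM in B212. A test of the difference between the tags was not possible with these single libraries. Over the tested members, 6 were higher with E2 in both tags (beside 33.3% of all genes) and 18 were lower in both (43.9%, beside 36.8%).

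**Figure D5:**
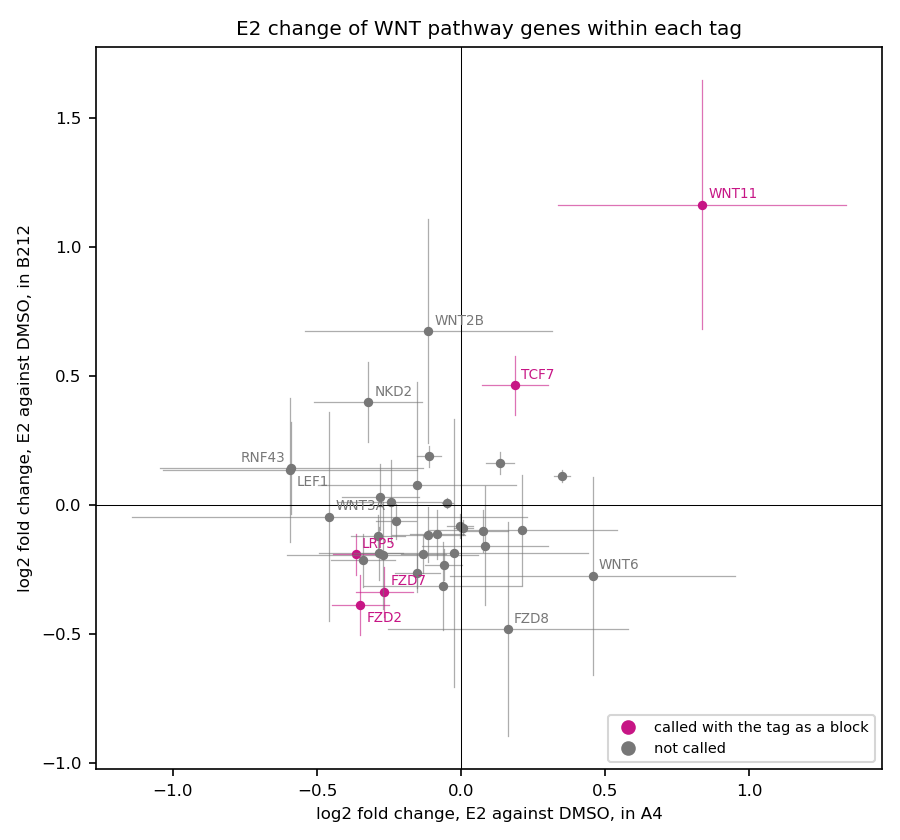
Log2 fold change of E2 against DMSO in A4 (horizontal) and in B212 (vertical) for the 36 tested members with a mean of at least 50 counts, with bars for the 95% counting interval. WNT11 lies alone at the upper right at 0.84 and 1.16, the 5 members that passed are in pink, and NKD2 is at the upper left.

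Another 78 genes of the pathway, outside the 45, were followed in the same fits, and 61 of them were tested. Between the tags 33 of 61 passed (54.1%, beside 51.0% of all genes), 13 higher and 20 lower in B212. Of the secreted modulators 4 of the 5 tested were lower and none was higher, beside 25.8% of all genes lower and 25.2% higher. RSPO3, an R-spondin that binds LGR receptors, had 58 and 91 counts in A4 and 24 and 29 in B212 (log2 fold change -1.49 ± 0.29), and SFRP5 had 118 and 142 against 67 and 57 (-1.09 ± 0.22). RSPO4 was chosen after its values were seen: it had 46 and 47 counts in A4 and 0 in both B212 libraries, at least 15.8-fold lower in B212 with 3 counts per library as the floor. SOSTDC1, a secreted inhibitor also chosen after its values were seen, was far more abundant. It had 30.5 and 30.9 CPM in A4 and 14.6 and 14.5 CPM in B212 (log2 fold change -1.08 ± 0.085).

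Among the further genes that passed with a mean of at least 50 counts, the largest difference was that of TLE1, a corepressor that binds TCF factors. It had 294 and 203 counts in A4 and 2439 and 1760 in B212, an 8.23-fold higher level in B212 (log2 fold change 3.04 ± 0.12, adjusted p 1.93e-14 by edgeR). APCDD1, a membrane inhibitor and reported target, had 254 and 324 counts against 50 and 72 (-2.26 ± 0.19). The membrane protein gene ROR2 lay below the limit of 50, with a mean of 46.75 counts, but differed more than TLE1. ROR2 was chosen after its values were seen. It had 98 and 81 counts in A4 and 2 and 6 in B212 (-4.48 ± 0.44, adjusted p 5.75e-08 by edgeR). The ratio of A4 to B212 for ROR2, over the summed counts, was 22.9 with a 95% counting interval of 11.4 to 53.8. The reported targets TNFRSF19 (-1.85 ± 0.13) and CD44 (-1.14 ± 0.073) and the ligand WNT10B (-1.41 ± 0.13) were lower in B212, and PRICKLE2, of the planar polarity branch, was higher (1.30 ± 0.12). An antisense gene faces 29.8% of the exonic bases of PRICKLE2. Both directions thus occurred among ligands, inhibitors and targets.

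With the block, 9 of the 61 passed for E2 (14.8%, beside 9.56% of all genes), and all 9 fell (beside 3.44% lower). Without the block edgeR called none of them, and none had an unadjusted p under 0.05. The lowest adjusted p was that of BCL9L, a coactivator that binds beta-catenin, with 8981 and 7584 counts (DMSO, E2) in A4 and 8701 and 5561 in B212 (log2 fold change -0.42 ± 0.069, adjusted p 0.00145 by edgeR with the block). On the opposite strand, other genes face 37.8% of the exonic bases of BCL9L and 11.3% of those of CCND1. The corepressors TLE3 (-0.31 ± 0.075) and TLE1 (-0.41 ± 0.11), the polarity genes CELSR1 (-0.25 ± 0.070) and VANGL1 (-0.23 ± 0.069), the WNT-binding receptor kinase ROR1 (-0.38 ± 0.11), and the reported targets ZNF703 (-0.27 ± 0.076) and CCND1 (-0.25 ± 0.076) fell as well. None of the 9 passed once the dependence on length and GC content was taken out, and 2 to 13 of the 61 passed under the other scalings and filters with the block.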

How the data were processed

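Poly(A)-selected, stranded libraries were made from 500 ng of RNA, per the labels' protocols. The authors deposited whole-number read counts for each gene symbol. The submitters' processing notes name HISAT2, SAMtools, featureCounts, DESeq2 and the build hg19, with no versions, and the annotation and strand setting are not given in the sources used here. The table has 4 more columns that belong to no listed sample, and these were left out.

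Genes were kept by filterByExpr (minimum count 10) and scaled with TMM factors. edgeR 4.0.16 (R 4.3.3) gave quasi-likelihood tests with Benjamini-Hochberg adjustment over all 15599 genes. The scripts were checked on simulated counts. CPM per kb used 1 GENCODE 29 transcript per symbol, which with GC content covered 93.6% of the tested genes. Alternatives used DESeq2 1.42.0, limma 3.58.1 (voom) and a trend fitted with mgcv 1.9.3. Figures used Python 3.11.15 and matplotlib 3.10.9.

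The main E2 fit had no block. The labels give each clone a DMSO and an E2 library, and the pairing was read from the tags in the column names. The deviations of same-tag libraries from their group means correlated across genes (Pearson r = 0.871), so a blocked fit, with the tag as the block, is printed beside it. The biological coefficient of variation was 32.2% without and 5.99% with the block.

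Described in full were members past the threshold for E2 in either fit, members past it between the tags that differed 1 or more on the log2 scale, and CTNNB1, AXIN2, LRP6 and PORCN. Of the further pathway genes, the rule took the 8 with the smallest p for E2 and the 8 with the largest difference between tags at a mean of at least 50 counts. The members and lists were chosen with earlier results of these data known.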

Additional observations from a re-analysis of the deposited data

Results flagged for a closer look

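For 9 of the members described in full the change with E2 had one sign in A4 and the other in B212. Each tag had 1 library per treatment, so the difference was not tested, and all of these members missed the threshold for E2. As the log2 fold change in B212 minus that in A4, the difference was 0.73 for RNF43, 0.73 for LEF1, 1.00 for LGR5, 0.25 for AXIN2, 0.13 for NOTUM and 0.054 for CTNNB1, where B212 had the higher value. It was -0.31 for WNT10A, -0.24 for PORCN and -0.096 for LRP6, where A4 had the higher value. The counting intervals of the difference spanned 0 for LGR5 (-0.88 to 2.88), NOTUM (-1.08 to 1.33), WNT10A (-0.70 to 0.08) and PORCN (-0.56 to 0.08), and excluded 0 for RNF43 (0.24 to 1.22), LEF1 (0.21 to 1.25), AXIN2 (0.0080 to 0.50), CTNNB1 (0.028 to 0.081) and LRP6 (-0.14 to -0.052), for counting error only.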

How the results depend on the processing

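With no block, no alternative scaling, filter, tool or omitted library gave a call for E2 among the members (0 in each). With the replicate block, the count was 5 as described, 2 with DESeq2 size factors, 6 with library size only, 6 with no filter (FZD1 the addition in both), 5 with at least 10 counts in every library, 3 with limma-voom, and 3 after correction for length and GC content. The count was 0 at an adjusted p under 0.01 and 0 with DESeq2, which gave no adjusted p for 25 of the 41 members. With the block, leaving out a library leaves no residual degree of freedom, so no such fit was made. Between the tags the count of 20 was 14 to 25 under other scalings, filters and tools, 11 with no treatment term, 10 where a log2 difference of 1 was also required, and 10 to 15 when 1 library was left out. Except for the log2 limit, the share of all genes in these fits is not given here. None of those 20 members, nor of the 8 further genes named for that comparison, changed sign between the tags. Among named members that did not pass it, the log2 fold change crossed 0 for TCF7 (-0.034 to 0.055) and LRP5 (-0.038 to 0.050), and for WNT11 (-0.59 to 0.58) and FZD7 (-0.13 to 0.22) when 1 library was left out. The cause of these moves was not tested. For E2 without the block, leaving out 1 library moved the log2 fold change through 0 for all 10 members that differed by at least 1 (log2) between the tags, among them RNF43 (-2.15 to 1.59) and DKK1 (-1.53 to 1.71). The same held for CTNNB1 (-0.13 to 0.077), AXIN2 (-0.39 to 0.14), LRP6 (-0.12 to 0.032), PORCN (-0.19 to 0.11), TLE1 (-2.72 to 1.70) and ZNF703 (-0.80 to 0.17). In these fits the 2 tags are unequally represented, and the cause of the moves was not tested. Members detected in all libraries numbered 29 at 1 CPM, 35 at 0.5 CPM and 39 at 10 counts. Depth limits LGR5, SFRP1, NOTUM and DKK1, which rest on 1 to 63 counts per library.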
